A study of Mus musculus with 9 samples.

Results

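Expression of 10 cell cycle and p53 pathway genes was followed in the large intestine of *Muc2* mutant mice: the cyclin-dependent kinase (CDK) inhibitor genes *Cdkn1a*, *Cdkn1b*, *Cdkn1c* and *Cdkn2c*, the p53 gene *Trp53*, the gene of its inhibitor *Mdm2*, and the stress-response genes *Ccng1*, *Trp53inp1*, *Gadd45a* and *Gadd45b*. Each gene was read from the probe sets annotated to it alone under its current or a former symbol. Of the 10 genes, 9 had such a probe set, out of 18193 genes in the whole series. They were covered by 18 probe sets, of which 15 were bright enough to be tested, and *Trp53* itself was not analysed here. The samples were 3 *Eeyore* mice, 3 *Winnie* mice and 3 wild-type C57BL/6 mice, all 8 wk old, with 1 Affymetrix array per mouse and RNA from proximal and distal large intestine mixed in equal amounts. *Eeyore* mice carried a missense allele of *Muc2*, the gene of the secreted intestinal mucin, that replaced a serine with a proline in the D4 domain, on a mixed background labelled C57BL/6, NOD-SCID. *Winnie* mice were C57BL/6 and carried a missense *Muc2* allele that replaced a cysteine with a tyrosine in the D3 domain. Both alleles came from chemical mutagenesis of C57BL/6 founders with *N*-ethyl-*N*-nitrosourea. The paper reports the diarrhoea as a recessive trait, but it describes vacuoles in goblet cells of heterozygous mice as well. Whether the *Eeyore* mice also carried the scid allele is not given in the sources used here.

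Cyclin-dependent kinases, switched on by cyclins, drive cells through the division cycle, and the Cip/Kip and INK4 families of inhibitors hold them back. The transcription factor p53 responds to DNA damage and other stresses by inducing genes that arrest the cycle, repair DNA or kill the cell, with *Cdkn1a*, which encodes p21, among the best known of them. In the intestine p21 is also made by epithelial cells as they leave the crypt and differentiate.

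The promoters of 8 of the 10 genes were in the RefSeq promoter table (GRCm38.p6), as 10 windows of 250 bases before a transcription start. The consensus p53 half-site, which reads the same on both strands, was matched in 5 of these windows (in 1 window each of *Cdkn1a*, *Ccng1*, *Gadd45a*, *Mdm2* and *Trp53*) and in 7.13% of all 32851 promoter windows. The list was drawn up partly from p53 targets, so its share of matches cannot be weighed against that of all windows. The windows of the genes whose transcripts turn out higher in a mutant strain (*Cdkn1a*, *Ccng1*, *Gadd45a*, *Mdm2*) are shown first. That of *Gadd45b*, which turns out lower, is shown last. They were picked by those results, so they cannot show whether a match goes with a rise. The *Trp53* window is not shown. Capitals mark the half-site matches.
Cdkn1a, chr17:29090729-29090978 (+): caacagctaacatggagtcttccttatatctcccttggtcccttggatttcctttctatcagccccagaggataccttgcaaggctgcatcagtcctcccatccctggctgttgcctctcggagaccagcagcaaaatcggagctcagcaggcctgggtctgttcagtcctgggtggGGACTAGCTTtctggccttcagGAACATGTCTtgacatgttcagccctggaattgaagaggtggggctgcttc
Ccng1, chr11:40755287-40755536 (-): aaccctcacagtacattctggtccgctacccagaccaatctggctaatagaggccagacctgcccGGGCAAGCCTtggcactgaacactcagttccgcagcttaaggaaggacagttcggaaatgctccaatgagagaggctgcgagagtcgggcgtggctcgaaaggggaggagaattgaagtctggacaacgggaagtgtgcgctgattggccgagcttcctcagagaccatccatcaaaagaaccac
Gadd45a, chr6:67037408-67037657 (-): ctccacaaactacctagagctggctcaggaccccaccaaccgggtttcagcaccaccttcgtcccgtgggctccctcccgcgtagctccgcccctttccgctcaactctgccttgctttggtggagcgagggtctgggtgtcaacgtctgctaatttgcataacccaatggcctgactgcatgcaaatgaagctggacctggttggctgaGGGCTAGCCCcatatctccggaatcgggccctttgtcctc
Mdm2, chr10:117710759-117711008 (-): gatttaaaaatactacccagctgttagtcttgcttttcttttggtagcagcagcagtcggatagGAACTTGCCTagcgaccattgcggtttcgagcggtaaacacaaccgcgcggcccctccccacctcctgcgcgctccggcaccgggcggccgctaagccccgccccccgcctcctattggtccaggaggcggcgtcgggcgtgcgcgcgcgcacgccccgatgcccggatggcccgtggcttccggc
Gadd45b, chr10:80929841-80930090 (+): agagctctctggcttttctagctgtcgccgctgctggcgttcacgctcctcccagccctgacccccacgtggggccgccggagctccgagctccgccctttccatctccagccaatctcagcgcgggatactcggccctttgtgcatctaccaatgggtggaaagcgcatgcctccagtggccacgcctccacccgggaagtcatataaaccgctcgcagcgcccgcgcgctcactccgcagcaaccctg
The *Cdkn1a* window held 2 matches, which begin 73 and 51 bases before the start, and a second *Cdkn1a* start further into the gene had none. The matches of *Ccng1*, *Gadd45a* and *Mdm2* begin 185, 40 and 186 bases before their starts. *Gadd45b* had no match, nor had *Cdkn1b* or either window of *Cdkn2c*. These are matches of letters within the windows and no measure of p53 binding.

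Some features of the arrays bear on every comparison with wild-type. All 9 mice were labelled male, but the 3 wild-type arrays went against that label. *Xist*, expressed from the inactive X chromosome of females, had signals of 65.7 to 107 in *Eeyore*, 9.13 to 61.8 in *Winnie* and 7371 to 8261 in wild-type mice, and Y-linked *Eif2s3y* had 1193 to 1320.3 in *Eeyore*, 1074 to 1454 in *Winnie* and 4.73 to 24.1 in wild-type mice. Sex therefore cannot be told apart from the *Muc2* alleles in either comparison with wild-type. Only the log2 difference of *Eeyore* against *Winnie* leaves those arrays out, and its SE and p-value still draw on all 9 arrays. Nor can background, by the strain labels, be told apart from the *Eeyore* allele in either comparison that involves *Eeyore*. Several tissue markers shifted between the groups. The summed signal of 8 epithelial markers was 226190 to 253341 in *Eeyore*, 218936 to 226038 in *Winnie* and 176347 to 180583 in wild-type mice. Of the 8, 6 were significantly higher in *Eeyore* and 4 in *Winnie*. The summed signal of 10 smooth muscle markers was 52779 to 58618 in *Eeyore*, 65146 to 71079 in *Winnie* and 139180.0 to 144608 in wild-type mice, and 10 of 10 were lower in each strain (median log2 change -1.53 in *Eeyore* and -1.10 in *Winnie*). Of 6 proliferation markers, 3 in *Eeyore* and 4 in *Winnie* were higher (summed signal 10888 to 12244 in *Eeyore*, 11335 to 15124 in *Winnie* and 8275 to 8689 in wild-type mice). The 2 tested neutrophil markers of 4 listed were higher in each strain (624 to 1226 in *Eeyore*, 535 to 4152 in *Winnie* and 46.8 to 94.4 in wild-type mice). Of 6 fibroblast markers, 3 in *Eeyore* and 2 in *Winnie* were lower (summed signal 25164 to 28240.2 in *Eeyore*, 23363 to 28888 in *Winnie* and 34725 to 36454 in wild-type mice). Of 5 tested leukocyte markers, 1 in *Eeyore* and 0 in *Winnie* were higher, of 2 tested endothelial markers 2 in *Eeyore* and 1 in *Winnie* were lower, of 6 goblet cell markers 3 were lower and 1 higher in each strain, and of 5 tested colonocyte markers 0 passed in either. No summed level was 0. In whole tissue, fewer cells of a type and less RNA per cell cannot be told apart, and the part of these shifts in the results below was not tested.

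Of the 9 measured genes, *Cdkn1a*, *Ccng1* and *Gadd45a* were higher in both mutant strains than in wild-type mice. In *Winnie* mice *Mdm2* was higher as well and *Gadd45b* lower on their brightest probe sets. These 2 calls were less stable, kept in 12 and 8 of 19 alternatives. A second probe set of *Gadd45b* was lower in both strains, and so was the second probe set of *Trp53inp1*. Counted on the brightest probe set of each gene with limma's test (Benjamini-Hochberg adjusted p under 0.05 over all tested probe sets), 3 of 9 genes were higher and 0 lower in *Eeyore*, against 14.0% higher (1605) and 16.6% lower (1899) among all 11453 tested genes. At an unadjusted p under 0.05, 4 of the 9 passed, *Gadd45b* being the lower one, against 42.2% of all tested genes. In *Winnie* 4 of 9 were higher and 1 lower, against 11.3% and 11.9% of all tested genes, and 5 passed at an unadjusted p under 0.05, against 38.0%. All 3 *Eeyore* mice lay above all 3 wild-type mice in 3 genes and below them in 1 (20.7% and 25.3% of all tested genes), and *Winnie* mice did so in 4 and 1 (19.7% and 24.3%). The median log2 change of the 9 genes was -0.30 in *Eeyore* and -0.11 in *Winnie*, beside -0.04 and -0.05 for all tested genes. In each strain 4 of the 9 changes were positive and 5 negative. Some of the negative signs turned when arrays were centred on their medians. The counts were small, the members were chosen with earlier results known, and no test was made of the set against its background.

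**Figure D1:**
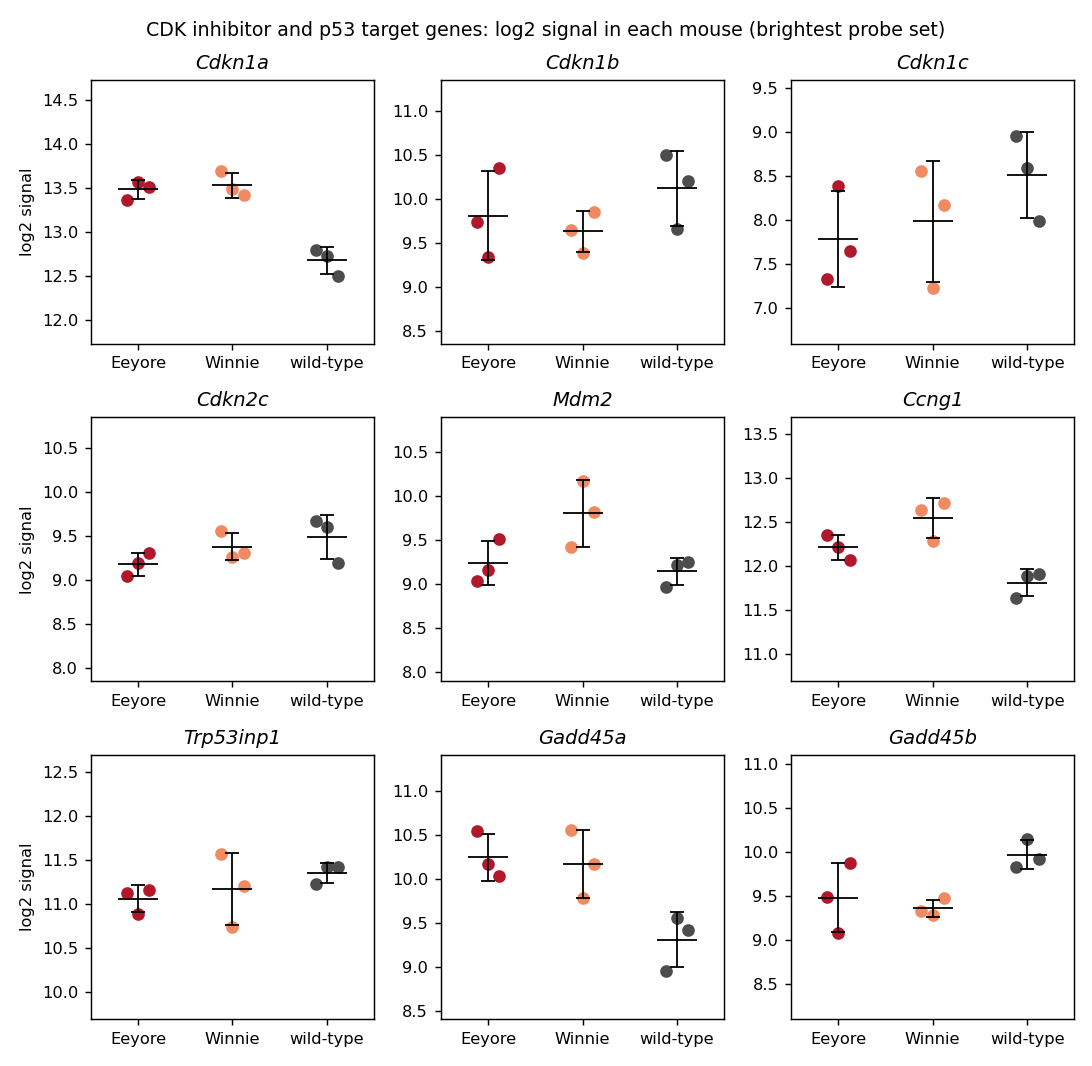
Log2 signal of the brightest probe set of each of the 9 measured genes in each mouse (dots), for *Eeyore*, *Winnie* and wild-type mice from left to right, with the mean (long bar) and SD (whiskers) of 3 mice per group; every axis spans 3 log2 units. *Cdkn1a*, *Ccng1* and *Gadd45a* show all 6 mutant mice above all 3 wild-type mice, and the groups overlap for *Cdkn1b*, *Cdkn1c* and *Cdkn2c*.

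*Cdkn1a* encodes p21, a Cip/Kip inhibitor that binds cyclin-CDK complexes and, through a separate contact, the replication clamp PCNA. Its brightest probe set (1424638_at) gave signals of 10571, 12191 and 11721 in *Eeyore*, 13219.7, 11509.9 and 10951 in *Winnie*, and 7147, 6811 and 5801 in wild-type mice. Every mutant mouse lay above every wild-type mouse, and the 2 mutant strains overlapped. The means were 11494 ± 834 in *Eeyore*, 11894 ± 1182 in *Winnie* and 6586 ± 701 in wild-type mice (SD, n = 3 each). On the log2 scale *Cdkn1a* rose by 0.81 ± 0.11 (SE) in *Eeyore*, a 1.75-fold rise (limma, adjusted p = 0.000282), and by 0.85 ± 0.11 in *Winnie*, a 1.81-fold rise (adjusted p = 0.000353). A second probe set (1421679_a_at) had signals of 1179, 1392 and 1720.1 in *Eeyore*, 1489.8, 1509 and 1166 in *Winnie*, and 682, 421 and 476 in wild-type mice. There too the mutant mice lay wholly above wild-type, and the rises were larger, 1.46 ± 0.20 in *Eeyore* (limma, adjusted p = 0.000386) and 1.42 ± 0.20 in *Winnie* (adjusted p = 0.000759). The gene lies on chromosome 17 at 29090979 to 29100722 (GRCm38.p6), and its call held in both strains under all 19 alternatives tried.

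The other 2 Cip/Kip genes gave no such pattern. *Cdkn1b* encodes p27, an inhibitor that keeps resting cells from entering the cycle. Its tested probe set had signals of 857, 653 and 1310.0 in *Eeyore*, 806, 674 and 927 in *Winnie*, and 1454, 812 and 1183 in wild-type mice. The groups overlapped, with wild-type mouse 1 the highest of the 9 and *Eeyore* mouse 2 the lowest. The log2 difference was -0.31 ± 0.26 in *Eeyore* (limma, adjusted p = 0.394) and -0.49 ± 0.26 in *Winnie* (adjusted p = 0.197). *Cdkn1c* encodes p57, the product of an imprinted gene that is expressed from the maternal copy. Its signals were 161, 334 and 200.2 in *Eeyore*, 378, 149.6 and 289 in *Winnie*, and 498, 387 and 254 in wild-type mice. The groups overlapped, and the log2 differences of -0.73 ± 0.38 in *Eeyore* (adjusted p = 0.166) and -0.53 ± 0.38 in *Winnie* (adjusted p = 0.342) did not pass. The intervals remained wide: from -1.55 to 0.09 in *Eeyore* and from -1.35 to 0.29 in *Winnie* (95% confidence, log2 scale).

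*Cdkn2c* encodes p18, an INK4 inhibitor that binds CDK4 and CDK6 and not the other CDKs. Its signals were 525, 582 and 632 in *Eeyore*, 752, 614 and 634 in *Winnie*, and 809.7, 774 and 586 in wild-type mice. Wild-type mice 1 and 2 were above every mutant mouse, but wild-type mouse 3 lay among them. The log2 difference was -0.31 ± 0.17 in *Eeyore* (limma, adjusted p = 0.183) and -0.11 ± 0.17 in *Winnie* (adjusted p = 0.677), and its sign turned in both strains when arrays were centred on their medians. Of the 4 CDK inhibitor genes among the 10, *Cdkn1a* was thus the only one called.

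*Mdm2* encodes the ubiquitin ligase that marks p53 for destruction, and it is itself induced by p53. Its brightest probe set (1423605_a_at) gave signals of 526, 575 and 732 in *Eeyore*, 684, 1154 and 904 in *Winnie*, and 500.2, 594 and 610.4 in wild-type mice. All 3 *Winnie* mice lay above all wild-type mice, whereas the *Eeyore* mice overlapped with them. In *Winnie* the signal was 914 ± 235, against 568 ± 59.4 in wild-type mice (SD, n = 3 each), a rise of 0.66 ± 0.20 on the log2 scale (limma, adjusted p = 0.0364). The difference in *Eeyore* was 0.10 ± 0.20 (adjusted p = 0.752). A second tested probe set (1427718_a_at) read 468, 290.2 and 484 in *Eeyore*, 360.5, 617 and 415 in *Winnie*, and 464, 362 and 332 in wild-type mice, with overlap throughout and log2 differences of 0.08 ± 0.26 in *Eeyore* (adjusted p = 0.844) and 0.24 ± 0.26 in *Winnie* (adjusted p = 0.531). The remaining probe set was too dim to test. The rise in *Winnie* thus rests on 1 probe set, and its call was kept in 12 of 19 alternatives. With the mean over its probe sets, dim one included, the log2 difference was -0.010, and the call was also lost without any 1 of *Winnie* mouse 2 or 3 and the wild-type mice.

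*Ccng1* encodes cyclin G1, a p53-induced protein that recruits a phosphatase to Mdm2. It was measured by 3 probe sets, which moved alike. The brightest (1420827_a_at) had signals of 5239.7, 4749 and 4289.8 in *Eeyore*, 6348, 5006 and 6722 in *Winnie*, and 3193, 3777 and 3856 in wild-type mice. Every mutant mouse was above every wild-type mouse, by the least margin in *Eeyore* mouse 3. The log2 rise was 0.40 ± 0.13 in *Eeyore* (1.32-fold, limma, adjusted p = 0.0364) and 0.73 ± 0.13 in *Winnie* (1.66-fold, adjusted p = 0.00259). The other probe sets rose by 0.70 ± 0.13 and 0.57 ± 0.13 on the log2 scale in *Eeyore* (adjusted p = 0.00193 and 0.00817) and by 0.86 ± 0.13 and 0.76 ± 0.13 in *Winnie* (adjusted p = 0.000987 and 0.00259), with no overlap between mutant and wild-type mice on either. The call on the brightest probe set was kept in 19 of 19 alternatives in *Winnie* and in 13 of 19 in *Eeyore*, where it was lost without *Eeyore* mouse 1 or 2 or wild-type mouse 1 or 2 (adjusted p = 0.0664 to 0.132), with quantile normalization (0.138) and with no intensity trend (0.0956). *Ccng1* lies on chromosome 11 at 40748552 to 40755309 (GRCm38.p6).

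*Trp53inp1* encodes a nuclear protein that p53 induces under stress and that promotes cell cycle arrest and cell death. Its 2 probe sets gave different answers. The brightest (1416926_at) had signals of 2242, 1889 and 2294 in *Eeyore*, 3029.8, 1713 and 2368 in *Winnie*, and 2397, 2734 and 2749.8 in wild-type mice. All *Eeyore* mice lay below all wild-type mice, but by a narrow margin, and the log2 difference of -0.30 ± 0.18 did not pass (limma, adjusted p = 0.226). In *Winnie* the mice straddled wild-type, with mouse 1 the highest of the 9 and mouse 2 the lowest (-0.18 ± 0.18, adjusted p = 0.486). The second probe set (1416927_at) read 253, 107.7 and 228 in *Eeyore*, 196, 160.8 and 196 in *Winnie*, and 506, 334 and 336 in wild-type mice. On this probe set every mutant mouse was below every wild-type mouse, and the signal fell by 1.07 ± 0.32 on the log2 scale in both strains (adjusted p = 0.0265 in *Eeyore* and 0.0332 in *Winnie*). Which transcripts the 2 probe sets detect was not examined.

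*Gadd45a* and *Gadd45b* encode small stress sensors that bind PCNA, CDK1 and an upstream kinase of the p38 and JNK pathways. *Gadd45a* is a p53 target, and *Gadd45b* is known more for its response to NF-κB and TGF-β. The 2 genes moved in opposite directions. *Gadd45a* had signals of 1493, 1153 and 1048 in *Eeyore*, 1515, 885 and 1152 in *Winnie*, and 499, 753 and 688 in wild-type mice. All 6 mutant mice were above all wild-type mice, with *Winnie* mouse 2 the nearest to them. The log2 rise was 0.93 ± 0.22 in *Eeyore* (1.91-fold, limma, adjusted p = 0.00789) and 0.86 ± 0.22 in *Winnie* (1.81-fold, adjusted p = 0.0163). The call in *Winnie* was lost without *Winnie* mouse 1 or wild-type mouse 1 (adjusted p up to 0.0687). This is the only probe set of *Gadd45a*, which lies on chromosome 6 at 67035096 to 67037407 (GRCm38.p6).

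*Gadd45b* had signals of 716, 542 and 936 in *Eeyore*, 642, 624 and 709.7 in *Winnie*, and 910.2, 1136 and 969 in wild-type mice on its brightest probe set (1450971_at). All *Winnie* mice were below all wild-type mice, and *Eeyore* mouse 3 was above wild-type mouse 1. The signal fell by 0.61 ± 0.19 on the log2 scale in *Winnie* (limma, adjusted p = 0.0387), and the difference of -0.49 ± 0.19 in *Eeyore* did not pass (adjusted p = 0.0708). On a second probe set (1449773_s_at) the signals were 264, 396 and 515 in *Eeyore*, 385, 454 and 334 in *Winnie*, and 496, 806 and 835 in wild-type mice. *Eeyore* mouse 3 again lay above wild-type mouse 1, while log2 changes of -0.88 ± 0.27 in *Eeyore* (adjusted p = 0.0278) and -0.84 ± 0.27 in *Winnie* (adjusted p = 0.0423) both passed. The remaining probe set was too dim to test, and the call on the brightest one in *Winnie* was kept in 8 of 19 alternatives and lost whenever a *Winnie* or wild-type mouse was left out. Centring arrays on their medians lost that call too, at a log2 change of -0.20 (adjusted p = 0.466).

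**Figure D2:**
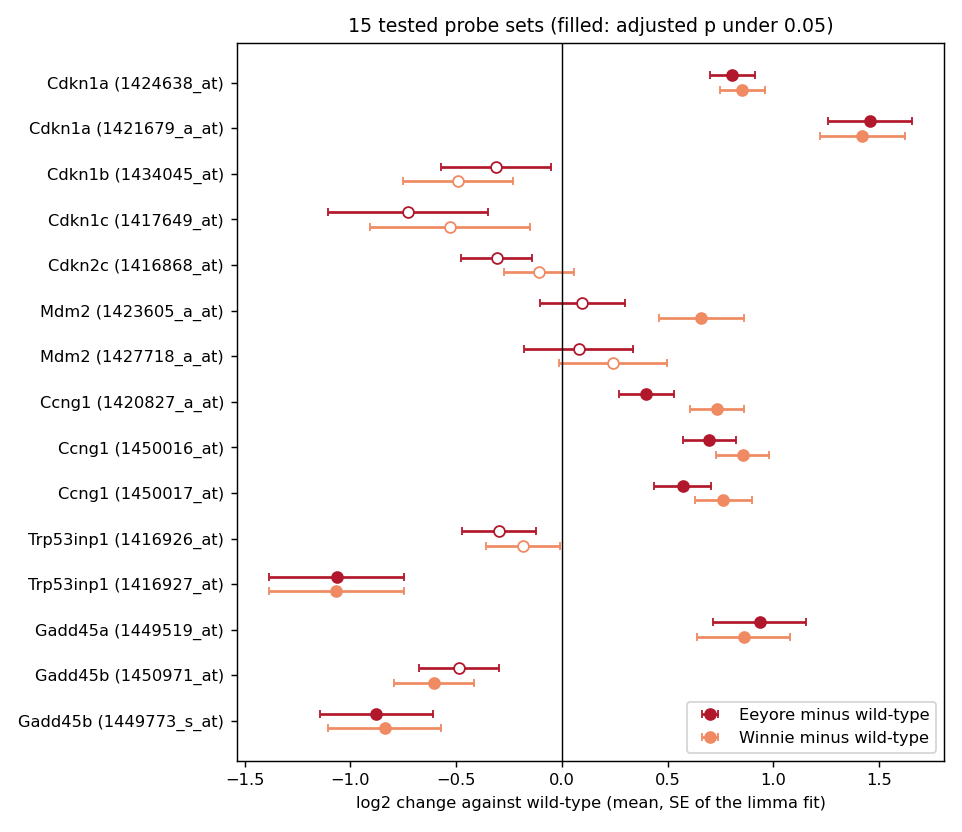
Log2 change against wild-type of the 15 tested probe sets, with the SE of the limma fit, in *Eeyore* (dark red, upper of each pair) and *Winnie* mice (orange, lower); filled points have an adjusted p under 0.05. All 5 probe sets of *Cdkn1a* and *Ccng1* are filled and right of 0 in both strains, and the 2 probe sets of *Trp53inp1* differ from each other more than the strains do.

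By their labels the strains differed in background as well as in *Muc2* allele, and the comparison between them cannot tell these apart. Set directly against each other, the strains differed in none of the 9 genes by limma's test. Of all 11453 tested genes 2.59% were called. At an unadjusted p under 0.05, 2 of the 9 passed, against 16.9% of all tested genes. The 2 genes were *Mdm2*, with a log2 difference of *Eeyore* minus *Winnie* of -0.56 ± 0.20 (95% interval -1.003 to -0.12, adjusted p = 0.206), and *Ccng1*, with -0.33 ± 0.13 (-0.62 to -0.05, adjusted p = 0.242). Both were lower in *Eeyore* than in *Winnie*, and in both the mice of the strains overlapped. *Cdkn1a* differed by -0.05 ± 0.11 (-0.28 to 0.18, adjusted p = 0.883) and *Gadd45a* by 0.07 ± 0.22 (-0.40 to 0.55, adjusted p = 0.914). The interval of *Cdkn1a* was narrow enough to leave out a difference as large as its rise over wild-type, and that of *Cdkn1c* was the widest (-1.02 to 0.62). The calls that the brightest probe sets of *Mdm2* and *Gadd45b* had in *Winnie* and not in *Eeyore* are therefore not shown to be differences between the strains. The second probe set of *Gadd45b* was called lower in both strains.

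The rest of the pathway was read from 5 lists of 77 genes, of which 68 were tested. In *Eeyore* 11 of the 68 were higher and 12 lower, near the 14.0% and 16.6% of all tested genes, and in *Winnie* 10 were higher and 11 lower, beside 11.3% and 11.9%. Most of the lower calls in *Winnie* depended on the array scaling. With arrays centred on their medians 34 genes were called there, but only 13 of the 21 calls were kept. The calls lost were all lower ones: *Atm*, *Ccnd3*, *Cdkn2b*, *Daxx*, *Ddb2*, *Mdm4*, *Plk2* and *Rrm2b*. Of the lower calls, those of *Cdk6*, *Foxo3* and *Sesn1* remained. Between the strains 0 of 68 were called with limma, and 9 had an unadjusted p under 0.05, a smaller share than the 16.9% of all tested genes. Both strains were compared with the same 3 wild-type mice, so the values side by side are not independent.

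Among 23 tested p53 target genes outside the 10, the strains had members on both sides. In *Eeyore* 3 were higher and 5 lower, with a median log2 change of -0.18, and in *Winnie* 4 and 4, with a median of -0.04. *Sfn*, which encodes 14-3-3σ, an epithelial protein that holds the mitotic kinase complex in the cytoplasm, had the largest change of the list. Its signals were 4106, 3235 and 2386 in *Eeyore*, 2357, 3321 and 2496 in *Winnie*, and 664, 559 and 725 in wild-type mice. All 6 mutant mice were at least as high as 2357, and the log2 rise was 2.29 ± 0.20 in *Eeyore* and 2.06 ± 0.20 in *Winnie* (limma, adjusted p = 1.71e-05 in *Eeyore* and 8.41e-05 in *Winnie*). *Sesn1*, a stress-induced regulator of growth signalling, was lower, with 429 in *Eeyore*, 380.1 in *Winnie* and 940.5 in wild-type mice on average (log2 change -1.14 ± 0.18 in *Eeyore* and -1.31 ± 0.18 in *Winnie*). *Plk2*, a polo-like kinase, was also lower (log2 change -1.19 ± 0.28 in *Eeyore* and -0.91 ± 0.28 in *Winnie*). The *Plk2* call was kept in 17 of the 17 alternatives that gave a value in *Eeyore*, but in 9 of 17 in *Winnie*. The differences of its relative *Plk3*, 0.96 ± 0.37 in *Eeyore* (adjusted p = 0.0691) and 1.06 ± 0.37 in *Winnie* (adjusted p = 0.0605), did not pass. The other called genes were named after their values were seen: *Rps27l*, a p53-inducible ribosomal protein gene (0.74 in *Eeyore* and 0.68 in *Winnie*), and *Perp*, of epithelial junctions (0.35 in *Eeyore* and 0.54 in *Winnie*), were higher in both strains, and *Ccng2* in *Winnie* (0.52). The DNA repair gene *Ddb2* was lower in both (-0.77 in *Eeyore* and -0.85 in *Winnie*), *Xpc* (-0.65) and *Btg2* (-0.43) in *Eeyore*, and *Rrm2b* (-0.78) in *Winnie*. In *Eeyore* the call of *Btg2* was kept in 9 of 19 alternatives and that of *Xpc* in 10 of 18. The *Rrm2b* call was kept in 10 of 17 in *Winnie*, and that of *Ddb2* in 14 of 18 in each strain.

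Of 15 tested regulators of p53, 2 were higher and 4 lower in *Eeyore* (median -0.16), and 1 higher and 3 lower in *Winnie* (median -0.18). *Mdm4*, the relative of *Mdm2* that blocks p53's activation domain, had mean signals of 349 in *Eeyore*, 455 in *Winnie* and 706 in wild-type mice. It was lower in both (log2 change -1.01 ± 0.17 in *Eeyore* and -0.63 ± 0.17 in *Winnie*, limma, adjusted p = 0.00137 and 0.0223). Its call was kept in 18 of 19 alternatives in *Eeyore* and in 14 of 19 in *Winnie*, where the mean over probe sets was among those that lost it. In *Eeyore* the log2 change ran from -1.12 to -0.31 over the alternatives. The 1 that lost the call there had an adjusted p of 0.558. The checkpoint kinase gene *Chek2* was lower in *Eeyore* (-0.70), as was *Trp53bp1*, whose product binds DNA breaks (-0.76 in *Eeyore*). *Chek1* was higher in *Winnie* (0.99 ± 0.29, adjusted p = 0.0303) and not called in *Eeyore* (0.21 ± 0.29). *Hipk2*, a kinase that phosphorylates p53, did not pass in *Winnie* (-0.55 ± 0.22, adjusted p = 0.0984). Named after their values were seen, the checkpoint kinase gene *Atm* was lower in both strains (-0.56 in *Eeyore* and -0.50 in *Winnie*), *Cop1* (0.26) and *Kat5* (0.46) were higher in *Eeyore* and *Daxx* (-0.48) was lower in *Winnie*. Of 19 alternatives, 9 kept the call of *Cop1* and 15 that of *Kat5* in *Eeyore*, and 7 that of *Daxx* in *Winnie*.

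Of 15 tested cyclin, CDK and related genes, 5 were higher and 1 lower in *Eeyore* (median 0.36), and 4 higher and 2 lower in *Winnie* (median 0.18). The mitotic kinase gene *Cdk1* had signals of 2677, 3043 and 2913 in *Eeyore*, 2341, 3629.5 and 3020.0 in *Winnie*, and 1412, 1403 and 1376 in wild-type mice, a log2 rise of 1.04 ± 0.14 in *Eeyore* and 1.08 ± 0.14 in *Winnie* (limma, adjusted p = 0.000393 and 0.000542). *Ccna2*, its cyclin A2 partner, rose by 0.81 ± 0.15 in *Eeyore* and 1.08 ± 0.15 in *Winnie*. *Cdkn1a*, *Cdk1* and *Ccna2* were thus higher in the same tissue, and the cells that carried each transcript were not resolved. *Cdk6*, a target of the INK4 inhibitors, had mean signals of 509 in *Eeyore*, 559 in *Winnie* and 1606 in wild-type mice and fell by 1.70 ± 0.22 in *Eeyore* and 1.53 ± 0.22 in *Winnie* on the log2 scale. Its call was kept in 18 of 19 alternatives in each strain. *Ccne1* did not pass in *Eeyore* (1.18 ± 0.51, adjusted p = 0.101). Outside the naming rule, *Pcna* was higher in both strains (0.36 in *Eeyore* and 0.53 in *Winnie*), *Ccnb2* (0.56) and *Ccnd1* (0.40) in *Eeyore* and *Ccne2* (1.04) in *Winnie*, and *Ccnd3* (-0.54) was lower in *Winnie*. Of 19 alternatives, 12 kept the call of *Pcna*, 18 that of *Ccnb2* and 9 that of *Ccnd1* in *Eeyore*. In *Winnie* the *Pcna* call was kept in 19 of 19, that of *Ccnd3* in 15 of 19 and that of *Ccne2* in 14 of 18.

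Of 5 other CDK inhibitor and Gadd45-related genes tested, 1 was higher and 1 lower in each strain (median -0.08 in *Eeyore* and 0.41 in *Winnie*). *Cdkn3*, which encodes a phosphatase that acts on CDKs, had mean signals of 702 in *Eeyore*, 615 in *Winnie* and 391 in wild-type mice and was higher by 0.84 ± 0.16 in *Eeyore* and 0.64 ± 0.16 in *Winnie* on the log2 scale (limma, adjusted p = 0.00257 and 0.0144). *Cdkn2b*, the INK4 gene for p15, averaged 1301 in *Eeyore*, 1416 in *Winnie* and 2201 in wild-type mice and was lower (log2 change -0.76 ± 0.21 in *Eeyore* and -0.70 ± 0.21 in *Winnie*, adjusted p = 0.0185 and 0.0345). *Gadd45g* did not pass in either (0.35 ± 0.24 in *Eeyore* and 0.43 ± 0.24 in *Winnie*). Among 10 transcription regulators of the CDK inhibitor genes, only *Foxo3*, an activator of *Cdkn1b*, was called, lower in both strains (0 of 10 were higher). Its mean signal was 1132 in *Eeyore*, 1519 in *Winnie* and 2938 in wild-type mice, a log2 change of -1.38 ± 0.17 in *Eeyore* and -0.93 ± 0.17 in *Winnie* (limma, adjusted p = 0.000226 and 0.00349), but with the mean over all of its probe sets the call was lost in both strains, at -0.59 in *Eeyore* (adjusted p = 0.318) and 0.21 in *Winnie* (adjusted p = 0.754). *Foxo1* (-0.40 ± 0.15 in *Eeyore* and -0.37 ± 0.15 in *Winnie*), *Zbtb17* in *Eeyore* (-0.66 ± 0.30) and *Sp1* in *Winnie* (-0.41 ± 0.16) did not pass.

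The profile of *Cdkn1a* over the 9 arrays was compared with that of each other tested gene, by the root mean square distance between log2 signals centred on each gene's mean. The 5 nearest genes were *Ubfd1* (0.0873), *Hax1* (0.102), *Rps27l* (0.109), *Rfc4*, a subunit of the clamp loader in DNA replication (0.112), and *Ddah1* (0.114). Their log2 changes lay between 0.66 and 0.85 in *Eeyore* and between 0.68 and 0.95 in *Winnie*. Within the 9 genes, *Ccng1* was nearest to *Cdkn1a*, at rank 875 (0.272), followed by *Gadd45a* at 1282 (0.301) and *Mdm2* at 3666 (0.416), and *Cdkn1c* was the farthest, at 9564 (0.796). The measure follows size as well as shape, so a gene with a larger or smaller rise in both strains is far from *Cdkn1a*.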

How the data were processed

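Total RNA of the large intestine of 9 mice was hybridised to Affymetrix mouse arrays. For each array the authors deposited 45101 probe set signals as linear intensities, and their mean without the top and bottom 2% was 500 on every array. The algorithm behind the signals is not given in the sources used here. Median signals were 88.1 to 99.5 in the 6 mutant arrays and 119 to 129 in the wild-type arrays. Intensities were used as log2 values with no further scaling. After 64 controls were left out, 22519 probe sets entered the tests, those whose mean over the arrays reached the 50th percentile (log2 signal 6.43). A gene was read from its brightest tested probe set that the platform annotation gives to it alone (34945 probe sets had 1 symbol, 932 several and 9160.0 none).

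A single limma model of the 3 group means was fitted to all arrays (limma 3.58.1, R 4.3.3), with moderated variances that follow intensity and no covariate. P-values were adjusted by the Benjamini-Hochberg method within each contrast over every tested probe set, and 0.05 was the threshold. Errors are SE of the fit or SD of 3 mice, and the number of arrays limits the precision. The fit was tested on simulated data. Python 3.11.15 with matplotlib 3.10.9 drew the plots.

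The members and gene lists were chosen with earlier results of these data known. Named genes were all members, the 3 largest changes of each pathway list in each strain, and the 5 genes nearest to *Cdkn1a*. Other called genes of a list are named where stated, after their values were seen. As alternatives, arrays were quantile normalized or centred on their medians, the filter was dropped or raised to the 75th percentile, 32 was added to signals before log2, the variance model was made robust or lost its trend, the fit was limited to the arrays being compared, mouse number was a block, probe sets of a gene were averaged, and each mouse was left out.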

Additional observations from a re-analysis of the deposited data

How the results depend on the processing

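The 19 alternatives left *Cdkn1a* called in both strains (log2 change 0.66 to 1.13 in *Eeyore* and 0.76 to 1.26 in *Winnie*), *Gadd45a* in *Eeyore* and *Ccng1* in *Winnie*. In *Eeyore* the count of called members, 3 on the deposited scaling, lay between 2 and 4, and leaving out 1 mouse gave the same range. *Ccng1* was lost with quantile normalization, with no intensity trend and without *Eeyore* mouse 1 or 2 or wild-type mouse 1 or 2, *Trp53inp1* was gained with the mean over probe sets and *Gadd45b* without *Eeyore* mouse 3. In *Winnie* the count of 5 was 3 with the mean over probe sets and 3 with no intensity trend, and 2 to 5 leaving out 1 mouse. It was 2 without wild-type mouse 1 (*Gadd45a*, *Gadd45b* and *Mdm2* lost), 3 without *Winnie* mouse 1 (*Gadd45a* and *Gadd45b* lost), and 3 without *Winnie* mouse 2 or 3 or wild-type mouse 2 or 3 (*Gadd45b* and *Mdm2* lost). The calls among all tested genes moved too. In *Winnie* they were 2659 of 11453 on the deposited scaling, 1601 of 10119 with the mean over probe sets, 2108 of 11453 with no intensity trend and 1724 of 11466 without wild-type mouse 1. In *Eeyore* they were 3504 of 11453 on the deposited scaling and 2396 of 11460 without wild-type mouse 2. *Eeyore* against *Winnie* gave 0 members under every alternative.

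Mouse numbers were fitted as a replicate block, which gave 3, 5 and 0 called members and changed no member's call. Among the 9 pairings of equally numbered mice, the correlation of deviations ran from -0.00821 to 0.164, with 1 above 0.1. In 12 of 18 checks the array's own number was best, a count that was not tested against chance. Whether equally numbered mice shared more than a number is not given in the sources used here and was not tested.

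Median centring moved the median log2 change of all tested genes to 0.28 in *Eeyore* and 0.36 in *Winnie*, and the share of calls that were higher to 80.7% and 90.3%, against 45.8% and 48.6% on the deposited scaling (51.7% and 53.7% with quantile normalization, 55.7% and 57.9% with the filter at the 75th percentile). It turned the sign of uncalled values: in *Eeyore* for *Cdkn1b* (0.015), *Cdkn2c* (0.017) and *Trp53inp1* (0.028), in *Winnie* for *Cdkn2c* (0.30), *Trp53inp1* (0.23), *Foxo1* (0.044) and *Sp1* (0.0040), and between the strains for *Gadd45a* (-0.0098). Median centring also lost the call of *Gadd45b* in *Winnie*, at a log2 change of -0.20 (limma, adjusted p = 0.466). The mean over probe sets turned *Cdkn1b* in *Eeyore* (0.0020), *Mdm2* in *Winnie* (-0.010) and between the strains (0.11), and *Foxo3* in *Winnie* (0.21). Leaving out 1 mouse turned *Mdm2* in *Eeyore* (-0.041 to 0.20), *Trp53inp1* in *Winnie* (-0.38 to 0.031) and, between the strains, *Cdkn1a* (-0.10 to 0.031), *Cdkn1b* (-0.089 to 0.41), *Cdkn1c* (-0.58 to 0.087), *Trp53inp1* (-0.33 to 0.083), *Gadd45a* (-0.12 to 0.27) and *Gadd45b* (-0.077 to 0.32). The cause was not tested.

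The pathway genes were put through the same alternatives after their values were seen. The count of 23 called in *Eeyore* was 14 to 24 leaving out 1 mouse, lowest without wild-type mouse 2. The count of 21 in *Winnie* was 11 with the mean over probe sets and 34 with median centring (13 kept). It was 13 to 21 leaving out 1 mouse, lowest without *Winnie* mouse 2. Between the strains it was 0 to 1, with *Gadd45gip1* called without *Eeyore* mouse 1. Calls among all tested genes in *Winnie* went from 2659 of 11453 to 1601 of 10119 with the mean over probe sets and 4699 of 11453 with median centring. Of the pathway calls, 7 in *Eeyore* (*Ccna2*, *Cdk1*, *Cdkn3*, *Plk2*, *Rps27l*, *Sesn1* and *Sfn*) and 7 in *Winnie* (*Ccna2*, *Ccng2*, *Cdk1*, *Pcna*, *Perp*, *Rps27l* and *Sfn*) were kept under every alternative that gave a value. Each other pathway call was lost under at least 1 alternative.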

Other observations

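Within its group, *Winnie* mouse 2 had the lowest signal in 7 of the 9 measured genes and the highest in 1, *Mdm2*. *Winnie* mouse 1 was the highest of its strain in 5 of the 9, and so was *Eeyore* mouse 3 in its strain. Wild-type mouse 1 was the lowest of its group in 5 genes and the highest in 4, and so never lay between the other wild-type mice. These are ranks within groups of 3 on the brightest probe set of each gene, given as values with no test.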
